A study of Triticum aestivum with 3 samples.

Results

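The genes described here are the 255 high-confidence genes of hexaploid wheat whose transcript level in replicate 3 of 3 wild-type shoot libraries was at least 2 times that in each of replicates 1 and 2. They were drawn from the 17720 high-confidence genes with a median of 5 to under 500 TPM (an abundance corrected for transcript length and scaled to the same total in each library), of which they make up 1.44%. The mirror set, in which replicate 3 lay at or below the level of each of replicates 1 and 2 divided by 2, held 2223 genes, or 12.5% of the same 17720. The 255 genes are called raised and the 2223 genes lowered in the following. With the rule applied to replicate 3 and only one of the others, 541 genes were raised without replicate 1 and 571 without replicate 2, and 241 of the 255 were among them each time. Members keep a ratio of at least 2 by definition here. Only the TPM window, then taken on the remaining libraries, could remove them, so this overlap is no check of the rise. Both sets were chosen by the TPM values of all 3 libraries, so the ratios and levels are given as a description, without a test.

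All 3 libraries are poly(A) RNA from wild-type shoots of the cultivar Chinese Spring, taken from seedlings under a single growth condition. The labels call the libraries biological replicates, and give the age as 12 days in the source name and 14 days as the developmental stage. No treatment, genotype or time point separates replicate 3 from replicates 1 and 2, and nothing in the labels marks replicate 3 as different. With 1 library on one side, the differences have no replicate check.

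Bread wheat carries the A, B and D subgenomes, inherited from different ancestral grasses. Each of its homoeologous groups, numbered 1 to 7, is made up of an A, a B and a D chromosome that hold largely corresponding genes in similar order, so that many genes exist as 3 homoeologues. Genes duplicated in tandem often sit side by side as arrays of similar sequence. A gene identifier gives the chromosome after TraesCS (2A, for example) and ends in a number that rises along that chromosome, which allowed position to be read as rank among the high-confidence genes of a chromosome. Gene names and products were not used here, since none of the identifiers matched the reference gene table, and the labelled tissue could not be checked against its markers.

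The libraries differed in scale. Replicate 3 held 67470696 estimated counts, against 75465873 for replicate 1 and 76337649 for replicate 2. The 100 most abundant genes of each library took 47.8% of all TPM in replicate 3, against 36.5% and 35.1% in replicates 1 and 2. The median eligible gene, meaning a high-confidence gene within the TPM window, stood at 7.58 TPM in replicate 3, against 10.9 and 11.3 TPM in replicates 1 and 2. Over the eligible genes the median log2 ratio of replicate 3 to the geometric mean of replicates 1 and 2 was -0.62, whereas that of replicate 2 to replicate 1 was 0.04. Replicate 3 was above both others in 9.67% of eligible genes and below both in 84.3%. A raised gene at the threshold of 2 was therefore 3.08 times higher relative to the median gene. When each library was divided by its median ratio to the geometric mean of all libraries, 727 genes (4.42% of 16443) were raised and 293 (1.78%) were lowered, so that raised genes made up 71.3% of both sets together, against 10.3% with the deposited TPM. This rescaling multiplies every ratio of replicate 3 upward, so none of the 255 could fall below 2. Their median ratio became 4.14, and 30 of them moved out of the TPM window. The balance of raised and lowered genes thus followed the scaling.

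Fewer genes met the rule with replicate 1 or 2 as the odd library. Replicate 3 was picked out by its values, so this contrast is a description and no check of the set. With replicate 2 as the odd library, 81 genes (0.457%) were raised and 42 (0.237%) lowered by the same rule, and with replicate 1, 24 genes (0.135%) were raised and 16 (0.0903%) lowered. On the rescaled TPM these shares were 0.316% raised and 0.31% lowered for replicate 2, and 0.0851% raised and 0.225% lowered for replicate 1. Across eligible genes the correlation of log2 TPM with replicate 3 was 0.894 for replicate 1 and 0.891 for replicate 2, while replicates 1 and 2 correlated at 0.975, which is a description over genes that share libraries. Within the raised set, replicates 1 and 2 lay within 1.5 times of each other in 227 genes (89.0%), against 2131 lowered genes (95.9%) and 96.5% of eligible genes. Replicate 1 was the higher of the pair in 122 raised genes and replicate 2 in 133, and 9 raised genes differed by more than 2 times between them.

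**Figure D1:**
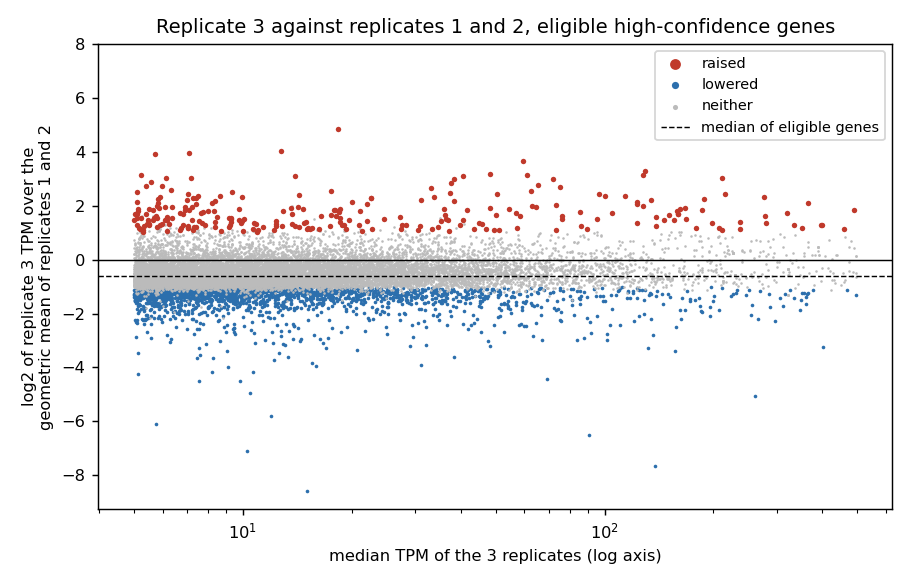
Each point is an eligible gene, plotted by its median TPM over the 3 replicates (log axis) and the log2 ratio of replicate 3 to the geometric mean of replicates 1 and 2 (2 genes at 0 in a library are left out), with raised genes, lowered genes and the other eligible genes in separate colours. The cloud is centred at -0.62 and the 255 raised genes lie as a sparse group above it, at a median of 1.57.

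The rises ranged widely above the threshold. The ratio of replicate 3 to the higher of replicates 1 and 2 had a median of 2.72 (quartiles 2.20 and 3.65) and reached 27.5. It was under 2.5 in 107 raised genes (42.0%), at least 3 in 96 (37.6%), at least 5 in 27 (10.6%) and at least 10 in 4 (1.57%). The lowered genes had a median ratio of 2.29 (quartiles 2.12 and 2.65), with 67.3% under 2.5 and 15.9% at 3 or more. After rescaling the median ratios were 2.60 for raised and 2.63 for lowered genes, so the larger ratios of the raised set belong to the deposited scale. In log2 units against the geometric mean of replicates 1 and 2, the median was 1.57 for raised genes and -1.27 for lowered genes. Raised genes together held 4.52% of all TPM in replicate 3, against 1.23% in replicate 1 and 1.27% in replicate 2, and lowered genes held 1.99%, 5.51% and 5.54% in the same libraries. The summed level of the raised set was thus above that of the lowered set in replicate 3, and below it in replicates 1 and 2. Both sets were chosen by their level in replicate 3, so this turn largely follows from the rule. The genes were selected for a ratio of at least 2, so the interval describes only the depth behind a value. The lower end of the exact 95% binomial (Clopper-Pearson) interval of the ratio, which covers counting error only, was above 1 for all 255 genes and at least 2 for 206.

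The steepest rise was that of TraesCS1B02G317500, a gene with a transcript of 708 bases, at 503 TPM in replicate 3, against 18.3 and 16.8 TPM in replicates 1 and 2, a ratio of 27.5. TraesCS6D02G088800 had 203 TPM in replicate 3 and 12.7 and 12.2 TPM in replicates 1 and 2 (ratio 16). TraesCS1D02G374900 stood at 90.9 TPM in replicate 3, against 7.08 and 4.81 TPM (ratio 12.8). In these genes both replicates 1 and 2 lay far below replicate 3. TraesCS2A02G067200 had 711 TPM in replicate 3, against 52.3 and 59.5 TPM (ratio 12.0). TraesCS2B02G079500 reached 1212 TPM in replicate 3, against 122 and 129 TPM (ratio 9.37). TraesCS1A02G403800 was at 426 TPM in replicate 3, against 48.2 and 47.2 TPM (ratio 8.85). Genes already abundant in replicates 1 and 2 were thus among the steepest rises. The remaining genes of the top 10 had ratios from 7.91 to 8.16. TraesCS2A02G067300 had 1042 TPM in replicate 3 and 111 and 128 TPM in replicates 1 and 2, and TraesCS2D02G065400 had 577, 72.2 and 71.7 TPM in the same order. TraesCS5D02G464900 was at 483 TPM in replicate 3, against 61.0 and 48.1 TPM. TraesCS4A02G431300 was the lowest of the 10 in replicate 3, at 57.2 TPM against 7.20 and 6.80 TPM, and the longest, with a transcript of 2057 bases. The other 9 had transcripts of 708 to 1076 bases.

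**Figure D2:**
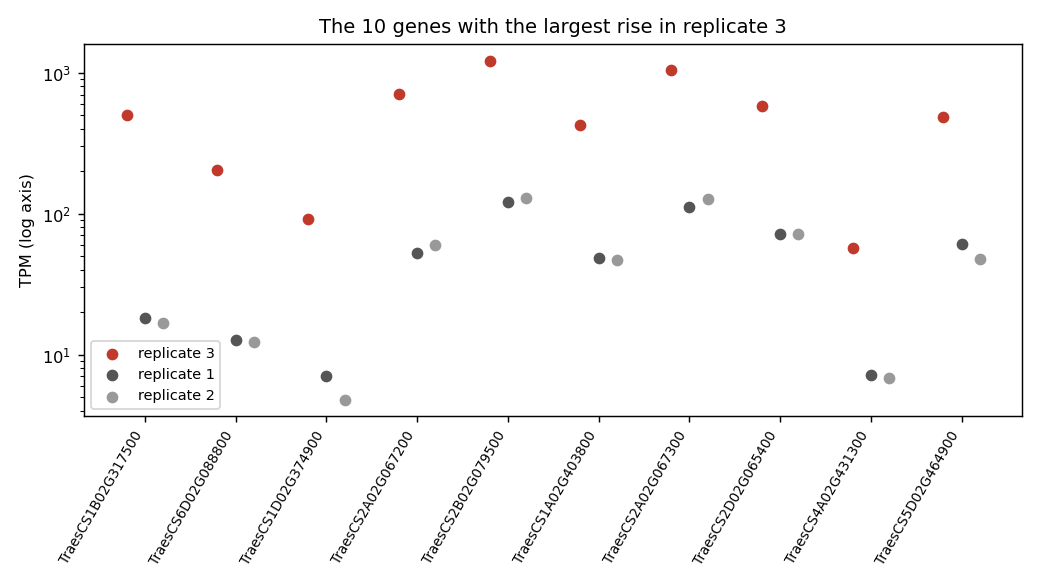
TPM (log axis) of the 10 raised genes with the largest ratio, with replicate 3 left of replicates 1 and 2 and 1 point per library. In each gene replicates 1 and 2 lie far closer to each other than to replicate 3, which stands 7.91 to 27.5 times above the higher of them.

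At the threshold the set passed into other genes without a gap. Just inside it were TraesCS4D02G168800 (42.7 TPM in replicate 3, against 19.2 and 21.3 TPM in replicates 1 and 2), TraesCS4B02G363800 (14.2 TPM, against 7.07 and 5.52 TPM) and TraesCS3B02G289600 (99.4 TPM, against 44.3 and 49.6 TPM). Just outside it were TraesCS3B02G064100 (56.9 TPM, against 28.5 and 19.8 TPM), TraesCS4A02G017200 (31.9 TPM, against 13.8 and 16 TPM) and TraesCS2D02G461500 (77.7 TPM, against 30.3 and 38.9 TPM). The genes on either side of the limit cannot be told apart by their size of rise. Few of the 255 rested on low counts. An estimated count under 50 in some library was found for 5 members, the lowest being TraesCS4A02G154800, chosen after its values were seen, at 14.7 TPM in replicate 3 against 5.98 and 0.824 TPM.

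Raised genes tended to be more abundant than eligible genes as a whole. Their median TPM over the 3 libraries had a median of 15.1, against 9.88 for lowered genes and 10.6 for eligible genes. The share of eligible genes that was raised was 1.21% at 5 to 10 TPM, 0.935% at 10 to 20 TPM, 1.39% at 20 to 50 TPM, 3.00% at 50 to 100 TPM, 6.93% at 100 to 200 TPM and 7.39% at 200 to 500 TPM. The lowered share stayed between 11.1% and 16.1% over the same classes. After rescaling, the raised share went up through every class, between 3.06% at 5 to 10 TPM and 19.2% at 200 to 500 TPM. The median of a raised gene is the higher of replicates 1 and 2, and that of a lowered gene the lower of them. Level is therefore not independent of the rule. Several genes of the arrays described below, such as TraesCS2A02G066900 and TraesCS2B02G079300, lie at 100 to 500 TPM. The raised shares of these classes thus count neighbouring genes several times. The 5 raised genes of highest median level were all on homoeologous group 2. TraesCS2B02G079300 had 1583 TPM in replicate 3, against 406 and 490 TPM in replicates 1 and 2, and TraesCS2A02G066900 had 1493 TPM, against 328 and 366 TPM. TraesCS2B02G340300 had 968 TPM, against 420 and 459 TPM. TraesCS2D02G320900 had 893 TPM, against 344 and 399 TPM, and TraesCS2A02G342600 had 884 TPM, against 337 and 398 TPM. The last 3 had similar levels and similar ratios (2.11 to 2.24).

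Length, which the rule did not use, differed between the sets. The most abundant transcript of raised genes had a median length of 1142 bases (quartiles 823 and 1547), against 1762 bases (quartiles 1191 and 2518) for lowered genes and 1495 bases (quartiles 1022 and 2119) for eligible genes. A transcript under 1000 bases was found in 103 raised genes (40.4%), against 18.1% of lowered and 23.8% of eligible genes. A transcript of 2000 bases or more was found in 22 raised genes (8.63%), against 41.4% of lowered and 28.6% of eligible genes. Read by length class, the raised share fell with every step in length, with 3.18% under 500 bases, 2.21% at 500 to 1000, 1.86% at 1000 to 1500, 1.14% at 1500 to 2000, 0.524% at 2000 to 3000 and 0.245% at 3000 bases and over, the last being 4 genes. Over the same classes the lowered share was 13%, 8.46%, 10.1%, 11.4%, 15.6% and 23.6%. This gradient was also present in the genes as a whole, in which the median log2 ratio of replicate 3 to replicates 1 and 2 was -0.47 under 500 bases and -0.87 at 3000 bases and over. After rescaling, the raised share still fell with length, between 7.20% in the shortest and 0.988% in the longest class, whereas the lowered share ranged only between 1.52% and 3.28% and was highest in the shortest class. The median lengths were then 1159 bases for raised, 1499 for lowered and 1470 for eligible genes, so that the longer transcripts of the lowered set were found with the deposited scale but not after rescaling. Within every class of level the raised share was higher under 1500 bases than at 1500 bases and over, for example 1.94% against 0.654% at 5 to 10 TPM and 8.24% against 5.0% at 200 to 500 TPM. Median annotated minus effective length was 165 bases in replicate 3, 168 in replicate 1 and 176 in replicate 2. The part of fragment length or RNA quality in the length gradient was not tested.

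**Figure D3:**
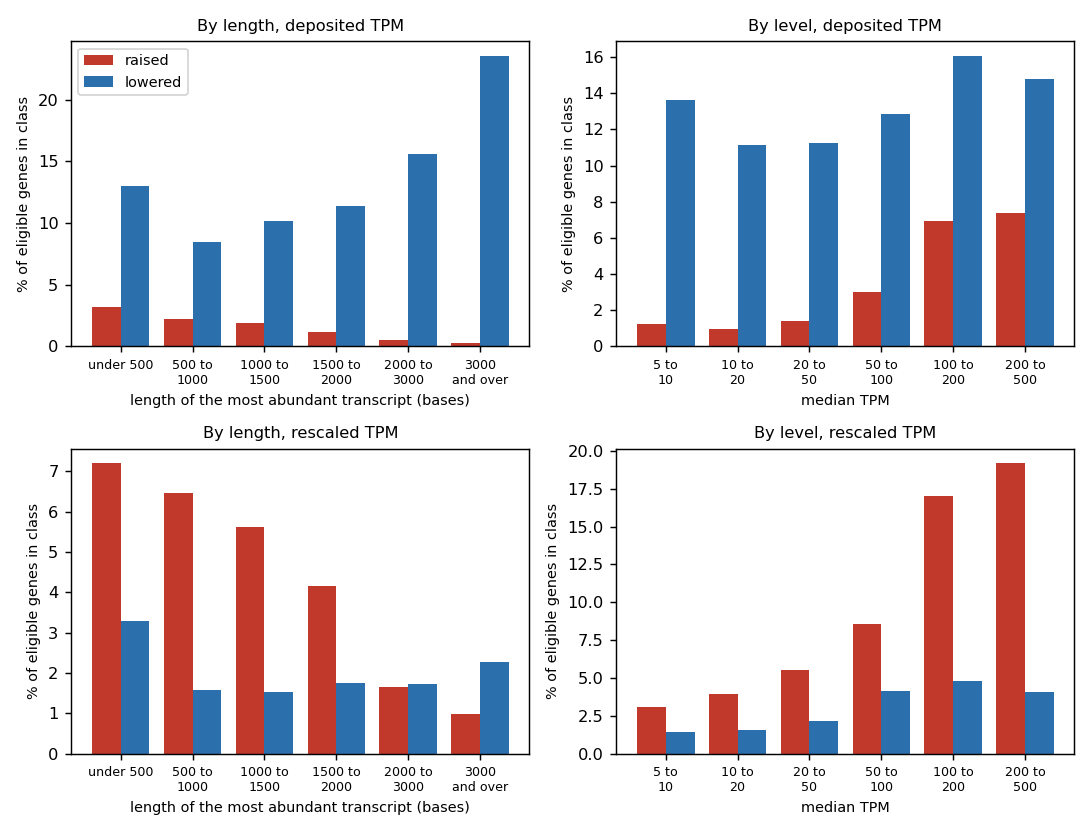
Percent of eligible genes raised (left bar of each pair) or lowered (right bar) by transcript length class and by level class, with the deposited TPM and with TPM rescaled to the median gene. The raised share falls with length and is highest at 100 TPM and over on both scales, whereas the lowered share depends on the scale.

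The raised genes were mostly genes with a single annotated transcript, 202 of 255 (79.2%), against 67% of lowered and 69.1% of eligible genes. Of the 53 raised genes with several transcripts, 49 had the same most abundant transcript in all 3 libraries. These 53 genes held 74 transcripts with a median of at least 1 TPM, of which 65 were at least 2 times higher in replicate 3 than in each of replicates 1 and 2, and 3 were below the higher of replicates 1 and 2. The genes were selected on the sum of their transcripts, so a rise of the leading transcript largely follows from the rule. Of the 53 genes, 20 had 2 or more transcripts at this level. In 13 of these 20 every such transcript was at least 2 times higher in replicate 3.

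The 3 subgenomes contributed evenly. Raised genes numbered 86 on the A subgenome (33.7%), 87 on B (34.1%) and 82 on D (32.2%), which is 1.45%, 1.47% and 1.39% of their eligible genes. The lowered shares were 12.7%, 12.3% and 12.7%. Among chromosomes the raised share was highest on 1D (18 of 803 genes, 2.24%) and 2A (21 of 939, 2.24%) and lowest on 7A (7 of 852, 0.822%) and 5D (9 of 963, 0.935%). By homoeologous group it was 1.75% on group 2 (50 genes), 1.74% on group 1 (42 genes) and between 1.22% and 1.38% on the others. The shares of 1D, 2A and groups 1 and 2 include neighbouring genes of the clusters described next. Raised genes were present on every chromosome and no chromosome held most of them. Along the chromosomes, the outermost 10% of identifier numbers at each end held 34 raised genes (13.3%), against 15.2% of lowered and 13.7% of eligible genes. Without replicate 1 these shares were 21.1% of raised and 15.2% of lowered genes, and without replicate 2 they were 16.8% and 16.7%, which turned the order. The raised share was highest between 10% and 20% of the identifier range (2.42%) and between 70% and 80% (2.29%), and lowest between 30% and 40% (0.925%). Arrays described next on 2A, 2B, 2D and 3B fall in the first of these intervals, where the share thus counts neighbouring genes several times.

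**Figure D4:**
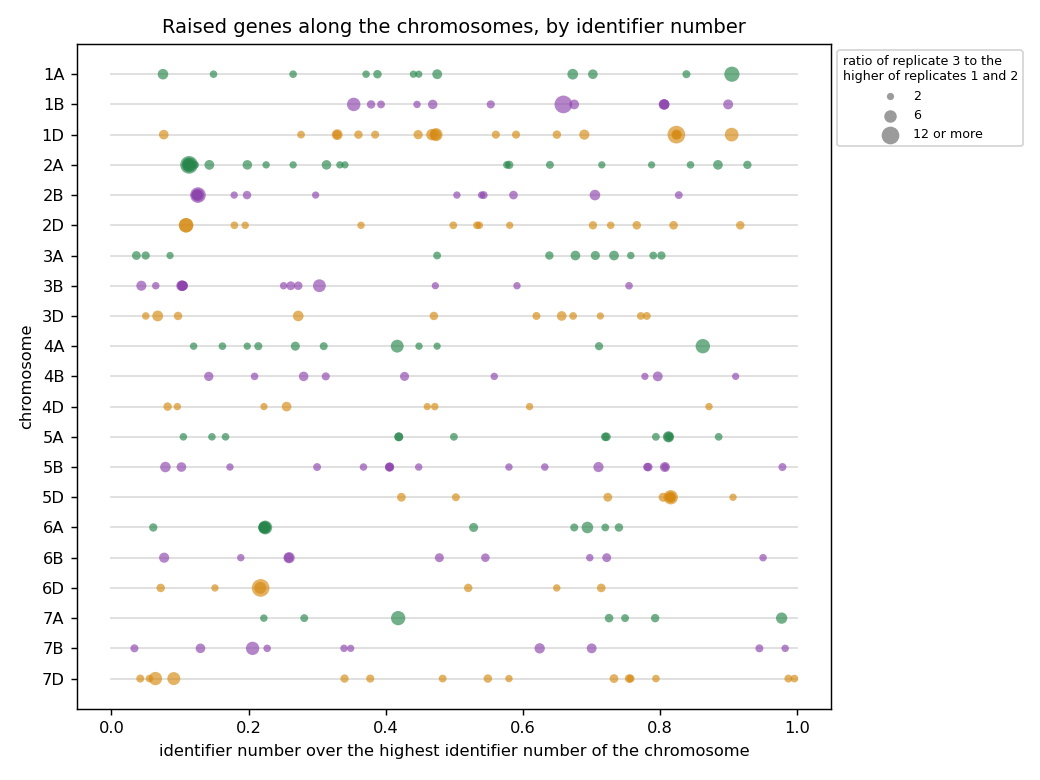
Raised genes on each chromosome by identifier number divided by the highest identifier number of the chromosome, coloured by subgenome, with marker size showing the ratio of replicate 3 to the higher of replicates 1 and 2. All chromosomes hold raised genes, and compact groups of large markers stand near the start of chromosomes 2A, 2B and 2D.

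Some raised genes were neighbours, in a share that depended on the scale. Of the 255, 33 (12.9%) stood directly beside another raised gene in the order of high-confidence genes, against 180 of 2223 lowered genes (8.10%), with the deposited TPM. Among all 17720 eligible genes, 7151 (40.4%) stood beside another eligible gene. Such a share grows with the size of the set, so it does not compare the clustering of sets of unlike size. After rescaling the order turned, with 8.12% of 727 raised and 9.56% of 293 lowered genes beside one of their own set, and a fold of 1.5 or a lower TPM limit also turned it. Raised genes formed 1 run of 5, 4 runs of 3 and 8 runs of 2 consecutive genes, and lowered genes 2 runs of 4, 4 of 3 and 80 of 2. Allowing gaps of up to 5 ranks, there were 4 clusters of 5 raised genes (on 2A, 2B, 3B and 6A), 1 of 4 (5D), 3 of 3 (1B, 1D and 5B) and 8 of 2, and 206 raised genes stood alone. The 97 eligible genes that were not raised themselves but stood beside a raised gene had a median log2 ratio of -0.49, of which 20.6% were above 0, against -0.63 and 11% for the 15999 eligible genes more than 20 ranks from any raised gene. Lowered genes made up 4.12% of these neighbours and 12.7% of the distant genes. At 2 to 5 ranks from a raised gene the median was -0.64 over 304 genes, with 15.8% above 0 and 14.5% lowered, so the median and the lowered share differed from those of distant genes in the opposite direction. Neighbouring genes may share sequence and thus reads, so they are not independent.

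The run of 5 was TraesCS2A02G066900 to TraesCS2A02G067300, at ranks 656 to 660 of the high-confidence genes of chromosome 2A. Besides TraesCS2A02G066900, TraesCS2A02G067200 and TraesCS2A02G067300, whose values are given above, it held TraesCS2A02G067000, with 174 TPM in replicate 3 against 49.4 and 56.8 TPM, and TraesCS2A02G067100, with 441 TPM against 65.3 and 64.7 TPM. The ratios within the run ranged from 3.07 to 12.0 and their transcripts measured 843 to 962 bases. The 2 genes before it lay above the TPM window and were named after their values were seen. TraesCS2A02G066700 had 2450 TPM in replicate 3, against 468 and 566 TPM, and TraesCS2A02G066800 had 5170 TPM, against 2108 and 2514 TPM. The array of raised genes thus reached beyond the window of the rule. Chromosomes 2B and 2D held comparable arrays near their start. On 2B the raised genes were TraesCS2B02G078900 (1238 TPM in replicate 3, against 219 and 277 TPM), TraesCS2B02G079100 (973 TPM, against 274 and 320 TPM), TraesCS2B02G079300, TraesCS2B02G079400 (464 TPM, against 69.8 and 75.4 TPM) and TraesCS2B02G079500. Between them, TraesCS2B02G079200 had 2598 TPM in replicate 3, against 595 and 653 TPM, above the window. On 2D the raised genes were TraesCS2D02G065400 and TraesCS2D02G065600, the second with 1649.8 TPM in replicate 3 against 197 and 211 TPM (ratio 7.80). The genes TraesCS2D02G065100, TraesCS2D02G065200 and TraesCS2D02G065300, above the window, had 2558, 3538 and 1768 TPM in replicate 3, with ratios of 4.62, 3.15 and 2.95. TraesCS2D02G065500, under the window, had 10.5 TPM in replicate 3, against 0.663 and 0.668 TPM. In all 3 arrays every named gene was at least 2 times higher in replicate 3 than in each of replicates 1 and 2. This follows from the choice, since members meet the rule and the others were named after their values were seen. Whether these genes are homoeologues was not tested.

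**Figure D5:**
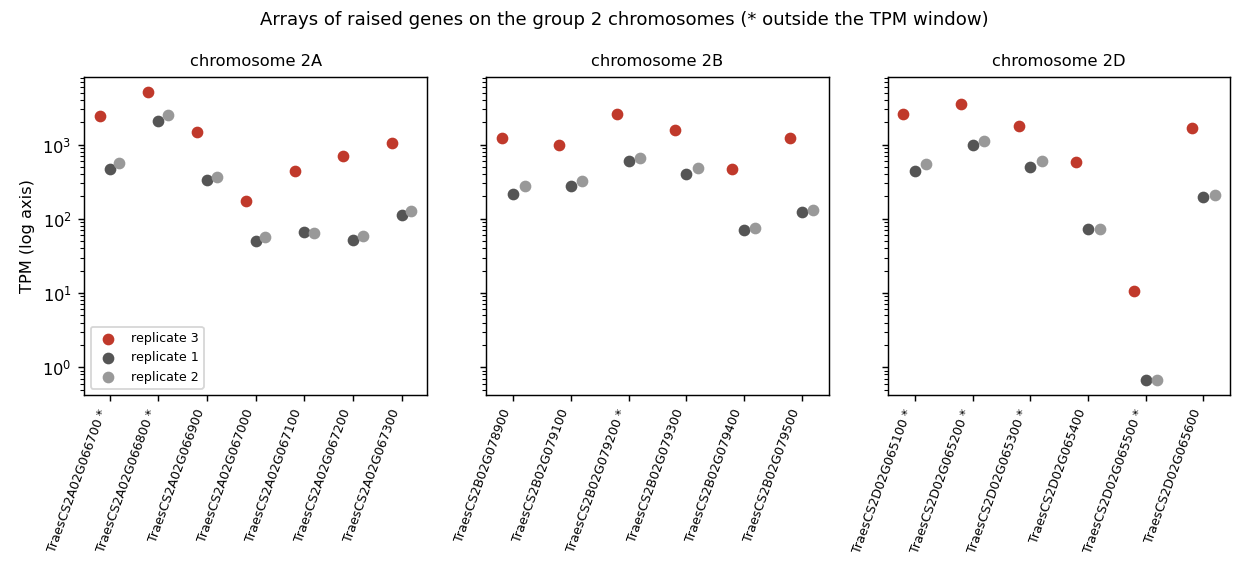
TPM (log axis) of the neighbouring genes on chromosomes 2A, 2B and 2D, with replicate 3 left of replicates 1 and 2 and an asterisk on genes outside the TPM window. Only neighbours with at least 10 TPM in replicate 3 and at least 2 times the level of each of replicates 1 and 2 are shown. Replicate 3 is therefore the highest library in every gene by this choice.

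Other clusters of raised genes were found on 1D, 1B, 6A, 5D and 3B. On 1D, TraesCS1D02G374900 was followed by TraesCS1D02G375000 (489 TPM in replicate 3, against 123 and 101 TPM) and TraesCS1D02G375100 (842 TPM, against 278 and 271 TPM). On 1B, TraesCS1B02G388200 had 806 TPM in replicate 3, against 188 and 156 TPM, TraesCS1B02G388400 had 125 TPM, against 31.1 and 23.2 TPM, and TraesCS1B02G388500 had 235 TPM, against 62.9 and 56.1 TPM. Members of a cluster were raised by definition, and differed in level by up to several times. On 6A, TraesCS6A02G094200, TraesCS6A02G094300 and TraesCS6A02G094400 followed each other at 246, 350 and 94.8 TPM in replicate 3, against 63.1, 62.8 and 17.6 TPM in replicate 1 and 64.7, 57.4 and 14.7 TPM in replicate 2, with TraesCS6A02G093700 and TraesCS6A02G094600 nearby. Not all genes in this span were higher, since TraesCS6A02G094000 had 5.50 TPM in replicate 3, against 9.02 and 11.7 TPM. The second steepest gene, TraesCS6D02G088800, and its neighbour TraesCS6D02G088600 (34.6 TPM in replicate 3, against 6.35 and 5.14 TPM) lie early on chromosome 6D. On 5D, TraesCS5D02G464700 (570 TPM in replicate 3, against 162 and 147 TPM), TraesCS5D02G464800 (465 TPM, against 96.7 and 75.5 TPM) and TraesCS5D02G464900 were consecutive. The 3B cluster differed from these in its short transcripts. Its genes had transcripts of 297 or 348 bases, and TraesCS3B02G063600 and TraesCS3B02G064000 had identical values (85.0 TPM in replicate 3, against 22.7 and 13.4 TPM). Their sequences were not used here. Where genes share reads, the authors' quantification divides the counts between them, so the values of such genes are uncertain. TraesCS1D02G295600 and TraesCS3D02G053000, with transcripts of 201 bases, also shared all values (438 TPM in replicate 3, against 117 and 160 TPM), so the 255 genes carry 253 distinct sets of values.

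Raised genes also recurred at like positions on the chromosomes of a homoeologous group. For each raised gene and each chromosome other than its own, a raised gene within 1% of the same relative position was looked for. One was found in 199 of 510 cases (39.0%) on the chromosomes of the same group and in 901 of 4590 cases (19.6%) on other groups. When the transcript lengths also had to lie within 10% of each other, the counts were 76 of 510 (14.9%) and 108 of 4590 (2.35%). For lowered genes, which are more numerous, the corresponding shares were 89.6% and 86.2%, and with length 26.8% and 16.6%. Positions repeat within arrays, so these shares are descriptions. The position and length limits were set after the data were seen. Linking raised genes by position and length gave 24 sets with 64 genes, of which 5 sets (16 genes) held all 3 subgenomes. TraesCS1A02G165700, TraesCS1B02G182400 and TraesCS1D02G175000 had 390, 258 and 306 TPM in replicate 3, against 163, 87.1 and 116 TPM in replicate 1 and 179, 95.1 and 123 TPM in replicate 2. TraesCS1A02G212000, TraesCS1B02G225700 and TraesCS1D02G215100 had 50.6, 50.5 and 33.8 TPM in replicate 3, against 13.1, 12.9 and 6.46 TPM in replicate 1 and 13.5, 14.7 and 7.4 TPM in replicate 2. In the first of these sets the ratios were 2.18 to 2.72 and in the second 3.44 to 4.57, while other sets were wider, such as that of TraesCS5A02G454300 (2.17 to 4.81) or one of 4 genes on 6A and 6D (3.80 to 16). The remaining 3 sets of this kind began with TraesCS1A02G200000, TraesCS3A02G256400 and TraesCS5A02G454300.

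The lowered set held some much larger ratios than the raised set, but the rule bears on this contrast. The divisor of a raised ratio is the median, which is at least 5 TPM. That of a lowered ratio is replicate 3, for which the rule sets no lower limit. TraesCS7A02G543200 had 0.0423 TPM in replicate 3, against 17.5 and 15.0 TPM in replicates 1 and 2 (ratio 355), and its value in replicate 3 rested on 3 estimated counts. TraesCS2B02G454500 had 0.685 TPM in replicate 3, against 141 and 138 TPM (ratio 202), and TraesCS3A02G095900 had 1.27 TPM, against 143 and 90.5 TPM (ratio 71.3). In the same way TraesCS2D02G431500 had 0.0998 TPM in replicate 3, against 18.3 and 10.3 TPM, and TraesCS5D02G054300 had 0.0931 TPM, against 5.74 and 7.24 TPM. The replicate 3 values of TraesCS2D02G431500 and TraesCS5D02G054300 rested on 8.25 and 5 estimated counts. Those of TraesCS3A02G095900 and TraesCS2B02G454500 rested on 24.5 and 67.7. Only 24 lowered genes (1.08%) reached a ratio of 10. The longest lowered runs, of 4 genes each, were TraesCS2A02G513400 to TraesCS2A02G513700 and TraesCS2D02G514500 to TraesCS2D02G514800. In the first, TraesCS2A02G513400 had 25.6 TPM in replicate 3, against 58.5 and 66.2 TPM, and in the second TraesCS2D02G514600 had 2.14 TPM, against 16.7 and 19.6 TPM. The longest runs in either direction were on chromosomes of homoeologous group 2, while shorter raised runs of 3 were also found on 1D, 5D and 6A.

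The same rule reached further outside the window and the high-confidence class. Among 175 high-confidence genes with a median of 500 TPM or more, 10 (5.71%) were raised and 15 lowered. The most abundant was TraesCS5D02G169900, named after its values were seen, with 8199 TPM in replicate 3 against 3365 and 3359 TPM, followed by TraesCS5A02G165700 with 6031 TPM against 2233 and 2445 TPM. Below the window, at a median above 0 and under 1 TPM, 4821 of 32417 genes (14.9%) were raised and 19.6% lowered. At 1 to 5 TPM, 452 of 20450 (2.21%) were raised and 18.0% lowered. No limit on counts was set here, and values this low can rest on few reads. The shares below the window are therefore not comparable with those within it. Of the genes under 5 TPM, 57 were raised and had at least 20 TPM in replicate 3, 16 of them at least 50 TPM. Examples, also chosen after seeing the values, are TraesCS1D02G306200, with 330 TPM in replicate 3 against 3.89 and 2.51 TPM, and TraesCS1B02G388300 in the 1B cluster, with 89.4 TPM against 2.25 and 0.859 TPM. The lower limit of the rule thus left out genes with large ratios. Their divisor, the higher of replicates 1 and 2, is under 5 TPM and has no lower limit. With at least 20 TPM in replicate 3, a large ratio follows from this choice. Of the low-confidence genes, 18 of 3771 (0.477%) in the window were raised and 833 (22.1%) lowered.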

How the data were processed

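RNA from 3 shoot libraries was quantified by the authors, who trimmed reads (Trimmomatic 0.36 by the submitters' processing notes) and ran kallisto, version not given in the sources used here, against an annotation from IWGSC RefSeq v1.1 that combined high-confidence genes with those low-confidence genes that histone mark peaks overlapped, and left out genes on unanchored scaffolds. Per transcript, the authors deposited annotated and effective length, a TPM value and an estimated count without normalization. Replicates were not pooled. Gene TPM is the sum over its transcripts, giving 165276 genes, 105200 of them high-confidence. Length is that of the most abundant transcript. Reads shared by similar transcripts are divided by the authors' quantification.

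Raised and lowered genes were found by the rule on TPM, in a script checked on simulated data. Members and lists were chosen with earlier results of these data known. No test was run, since 1 library stood against 2. Ratio intervals are exact binomial (Clopper-Pearson, 95%) on rounded estimated counts and cover counting error only. Rescaled TPM is TPM divided by each library's median ratio to the geometric mean over eligible genes. Named genes were the 10 largest ratios, the 5 highest medians, 3 genes on either side of the threshold, the 5 largest ratios of the lowered set and the longest runs. Genes named beyond this rule (other clusters, sets at like positions, copies with shared values and genes outside the window) were chosen after their values were seen. Product lists and marker lists were not used here, because 0 of the raised identifiers matched the 155467 entries of the reference gene table. Alternatives were other scalings, lengths, folds, TPM limits, a pseudocount of 1, low-confidence genes, and each replicate left out. Scripts ran in Python 3.11.15 with pandas 2.3.3 and numpy 2.4.6 for the tables, scipy 1.17.1 for the intervals and matplotlib 3.10.9 for the plots.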

Additional observations from a re-analysis of the deposited data

How the results depend on the processing

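Of 191 values of 15 results under 13 alternatives, 120 moved by less than the limit set for them and 71 by more. The limit was a factor of 1.5 for numbers of genes. For shares and medians it was a 95% interval over genes, taken as independent, so it depends on set size. No gene passed between the raised and lowered sets, a move that most of these alternatives could not produce. The order of the raised against the lowered set turned for number and median ratio under both scalings (ratio 2.60 against 2.63 and 2.62 against 2.62, the raised set the lower), for adjacency under median-ratio scaling, a fold of 1.5 (10.6% against 21.4%), from 1 TPM (9.76% against 15.7%) and without a lower limit, and for outer positions with size factors (15.0% against 14.9%), from 1 TPM (15.8% against 15.4%), without a lower limit and without replicate 1 or 2. It held for median length under every alternative run. Adjacency grows with the size of the set, so its order is not a comparison of clustering. Median-ratio scaling gave 727 raised (4.42%, next to another raised gene 8.12%) and 293 lowered genes (1.78%, median ratio 2.63, median length 1499, next to another lowered gene 9.56%). Estimated counts with size factors gave 793 raised (4.48%, adjacent 8.95%) and 323 lowered genes (1.82%, ratio 2.62, length 1512). This setting held all 255 raised genes, but it keeps the TPM window and moves the ratios of replicate 3 upward. A fold of 1.5 gave 540 raised (3.05%, ratio 1.94) and 8375 lowered genes (47.3%, ratio 1.78, adjacent 21.4%). A fold of 3 gave 96 raised (0.542%, ratio 4.00, length 1046.5, adjacent 26.0%, subgenome B 41.7%, D 26.0%) and 353 lowered genes (1.99%, ratio 3.81, length 1533). Without a lower TPM limit there were 5528 raised (7.83%, ratio 3.53, length 1417.5, outer positions 18.3%, adjacent 18.6%) and 12253 lowered genes (17.4%, ratio 2.57, outer positions 18.2%, adjacent 28.0%). From 1 TPM there were 707 raised (1.85%, length 1243) and 5914 lowered genes (15.5%, length 1846.5, adjacent 15.7%). A pseudocount of 1 TPM left 1295 lowered genes (7.31%, length 1588), annotated length gave a lowered ratio of 2.27 and length of 1863, and low-confidence genes brought the lowered share to 14.2% and length to 1428.

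Leaving out replicate 1 or 2 gave 541 to 571 raised genes (3.29% to 3.59%, ratio 3.00 to 3.32, length 1190 to 1216, outer positions 16.8% to 21.1%), each with 241 of the 255, and lowered genes at 12.9% to 16.3%, ratio 2.31 to 2.33, length 1630.5 to 1640.5 and adjacent 8.22% to 10.9%. Members of the 255 could be lost here only through the TPM window, since their ratios stay at 2 or more by definition. The rule gives no value without replicate 3, and low-confidence genes, numbered apart, gave none for position or adjacency. The causes of these shifts were not tested. No paired analysis was possible because all 3 libraries belong to 1 group. Depth limited the genes under 50 estimated counts.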
